A study of Homo sapiens with 23 samples.

Results

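The 2 BRD2 peak lists were set against the 2 H3K4me1 peak lists of NCI-H23 cells, to show where BRD2 lies when it does not lie on H3K4me1. These 4 libraries were taken by their labelled target out of 23 samples, and their lists hold 56830 and 45730 BRD2 peaks and 141240 and 204854 H3K4me1 peaks of the 2889028 peaks in 22 lists. NCI-H23 is an established line of human non-small cell lung cancer, and the series profiled it by ChIP-seq, in which DNA bound to an immunoprecipitated protein is sequenced. The marks used to split BRD2 are H3K4me3 and H3K27ac, and the lists of H4K5ac, H4K8ac, H4K12ac, H4K5acK8ac, H3K9me3 and H3K27me3 serve for comparison, each with 2 libraries of the same line; no file of the input library was used here. The treatment protocol names the BET inhibitor JQ1 and its solvent DMSO, but no label says which library received which, so treatment cannot be told apart from replicate. The labels do not say whether replicate libraries are separate cultures, so the spread between them may be technical.

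BRD2 belongs to the BET family, whose paired bromodomains bind acetylated lysines on histone tails and help to bring the transcription machinery to chromatin. H3K4me3 marks the nucleosomes around active promoters, whereas H3K4me1 marks enhancers and the shoulders of promoters, where it flanks H3K4me3. H3K27ac is found on active promoters and active enhancers alike, so H3K27ac without H3K4me3 is the usual sign of an active site away from promoters.

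Each BRD2 peak was represented by its summit, the position of highest signal in the deposited list. A summit was inside when it lay in an H3K4me1 peak, in a gap when it lay between neighbouring H3K4me1 peaks at most 2000 bp apart, and farther otherwise. The lists are uneven: BRD2 peaks covered 14.5 Mb in replicate 1 and 18.3 Mb in replicate 2, and H3K4me1 peaks covered 95.8 Mb and 195 Mb. H3K4me1 peaks took up 3.10% and 6.30% of the span to the last peak of each chromosome, and the gaps 1.5% and 2.22%. Over all deposited BRD2 peaks, 14.8% and 22.9% of the replicate 1 summits lay inside peaks of H3K4me1 replicates 1 and 2, and 26.1% and 37.7% of the replicate 2 summits. The matching gap shares were 12.5% and 14.3% for BRD2 replicate 1, and 20.1% and 22.3% for replicate 2. Unless stated otherwise, the values below are for the 10000 strongest peaks of each BRD2 list, ranked by −log10 q. The 10000th BRD2 peak had a −log10 q of 2.33 in replicate 1 and 6.96 in replicate 2, so the set reaches weaker peaks in replicate 1.

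Among these strongest peaks, with gaps of up to 2 kb, the gap class outnumbered the inside class in every library pair. BRD2 replicate 1 had 20.2% of its summits inside H3K4me1 replicate 1 and 32.1% inside replicate 2, and BRD2 replicate 2 had 20.1% and 33.6%. The gap shares were 37.2% and 43% for BRD2 replicate 1 and 42.7% and 49% for BRD2 replicate 2. Set against all deposited peaks, the gap share was higher in every pair, while the inside share was higher in BRD2 replicate 1 and lower in replicate 2. The inside share followed the H3K4me1 list used and averaged 26.5%. Its SD was 0.491 percentage points between the BRD2 libraries and 8.97 between the H3K4me1 libraries (n = 2 each). Each library was first averaged over the 2 lists of the other target. With H3K4me1 replicate 1 alone the mean was 20.2%, and with replicate 2 alone 32.9%. The gap share averaged 43.0% (SD 4.04 between BRD2 libraries and 4.28 between H3K4me1 libraries), and the remaining 30.5% of summits were farther. The order of the 2 classes turned in all 4 pairs over all deposited BRD2 peaks (17.3% in gaps against 25.4% inside), with gaps of at most 1000 bp (12.3% against 26.5%) and with the 10000 strongest H3K4me1 peaks (3.48% against 13.4%). Counting any overlap of the BRD2 peak, instead of its summit, raised the share that meets H3K4me1 to 35.6% and 48.7% in BRD2 replicate 1 and 48.6% and 63.8% in replicate 2. No p-value is given, because the 4 pairs share libraries and each target has only 2 of them.

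The split by the other marks separated the summits. A BRD2 peak was assigned to H3K4me3 when it overlapped peaks of both H3K4me3 lists, and to H3K27ac without H3K4me3 when it overlapped both H3K27ac lists and neither H3K4me3 list. Of the 10000 strongest peaks of BRD2 replicates 1 and 2, 8121 and 9223 had H3K4me3, 681 and 567 had H3K27ac without H3K4me3, 998 and 78 had neither mark in any list, and 200 and 132 had a mark in only 1 of its lists. Almost every BRD2 peak with H3K4me3 also had H3K27ac, in both lists for 8078 of 8121 and 9172 of 9223, so these data give no usable group of BRD2 peaks with H3K4me3 alone.

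At H3K4me3, BRD2 summits were less often inside H3K4me1 than in a gap of up to 2 kb. With H3K4me1 replicate 1, 14.6% of the BRD2 replicate 1 summits and 14.3% of the replicate 2 summits were inside, and with H3K4me1 replicate 2, 28.9% and 29.1%. The gap held 45.3% and 46.0% with the first H3K4me1 list and 52.7% and 53.1% with the second. The 2 BRD2 libraries therefore gave nearly the same shares with a given H3K4me1 list. Averaged over the 2 lists, they differed with an SD of 0.0241 percentage points for the inside share and 0.395 for the gap share. The first SD understates the difference within a list, because the BRD2 libraries differed in opposite directions with the 2 lists. The 2 H3K4me1 libraries differed with an SD of 10.2 and 5.14. Over all deposited BRD2 peaks the gap share at H3K4me3 was still the higher in all 4 pairs, at 43.1% against 29.0% on average. It was the lower in all 4 with gaps of at most 1000 bp, at 14.1% against 21.7%, and with the 10000 strongest H3K4me1 peaks, at 3.96% against 8.90%.

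BRD2 with H3K27ac and no H3K4me3 had the opposite placement. Its summits lay inside H3K4me1 in 92.8% and 98.1% of cases for BRD2 replicate 1 and in 94.5% and 98.8% for replicate 2, and in a gap in at most 2.47%. The inside share of this group exceeded that of BRD2 at H3K4me3 by 74.3 percentage points on average, and its gap share was 48.0 percentage points lower. Both differences had this direction in all 4 pairs and were larger than the spread between libraries. In the pooled set the 2 groups weigh unequally. The group with H3K4me3 made up at least 98.8% of the gap class in each pair, and it also supplied 58.7% to 79.8% of the inside class, because it is so much larger.

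BRD2 peaks with neither mark were mostly farther away in 3 of the 4 pairs, for 92.1% and 93.4% of the 998 in replicate 1 and 94.9% of the 78 in replicate 2 with H3K4me1 replicate 2. With H3K4me1 replicate 1, 50% of the 78 were farther and 46.2% inside. Only 13.4% of the 998 overlapped a peak of the other BRD2 list, against 99.1% of the replicate 1 peaks with H3K4me3. In replicate 2, 91.0% of the 78 did so, against 91.5% of those with H3K4me3, so the low agreement held for the replicate 1 peaks, whose median −log10 q was 2.83 against 11.6 in replicate 2. The group accounted for 21.6% and 37.5% of the farther class in BRD2 replicate 1, and for 1.05% and 4.26% in replicate 2.

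**Figure D1:**
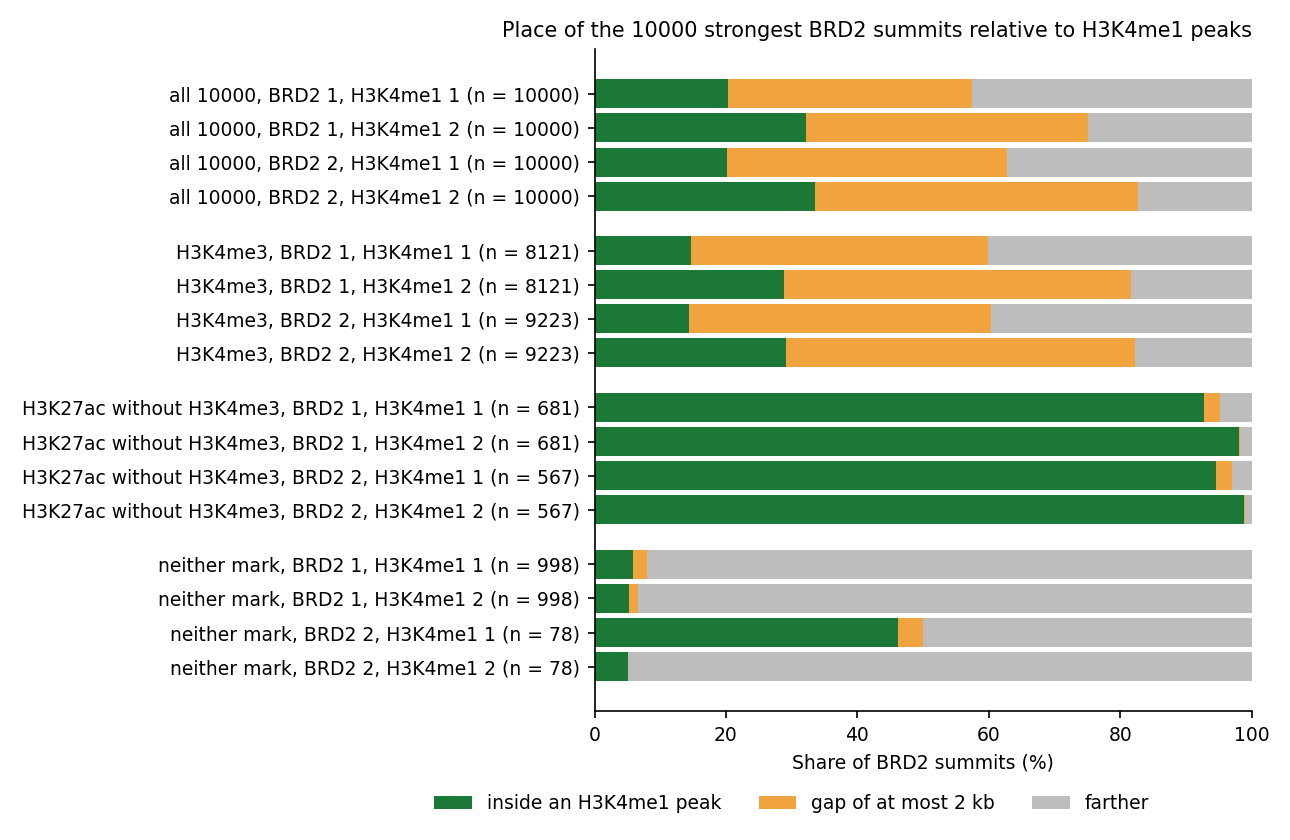
Share of BRD2 summits (horizontal axis, %) inside H3K4me1 peaks (green), in gaps of at most 2 kb (orange) or farther (grey), for the 10000 strongest peaks of each list and for their groups by mark; each bar is 1 library pair, with its number of summits. Bars of BRD2 with H3K27ac and no H3K4me3 are at least 92.8% green, whereas bars of BRD2 with H3K4me3 are at most 29.1% green.

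The distance from the summit showed the same difference as a shape. At H3K4me3, the share of summits with an H3K4me1 peak was lowest near the summit itself and rose outwards. For BRD2 replicate 1 and H3K4me1 replicate 1 it was 14.6% at the summit, 29.2% at 500 bp, 43.4% at 1000 bp, 36.5% at 2000 bp and 17.4% at 5000 bp. The highest point was 44.2% at 1100 bp in that pair, 62.7% at 1100 bp with H3K4me1 replicate 2, and 44.1% and 62.5% at 1200 bp for BRD2 replicate 2. H3K4me1 thus lay on the shoulders of these summits in every pair. Around BRD2 with H3K27ac and no H3K4me3 the curve was highest at the summit and fell outwards, with small rises beyond 1000 bp. At 1000 bp it was 63.9% and 81.0% for BRD2 replicate 1 and 61.8% and 78.7% for replicate 2. At 5000 bp it still stood at 28.7% to 49.7%.

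**Figure D2:**
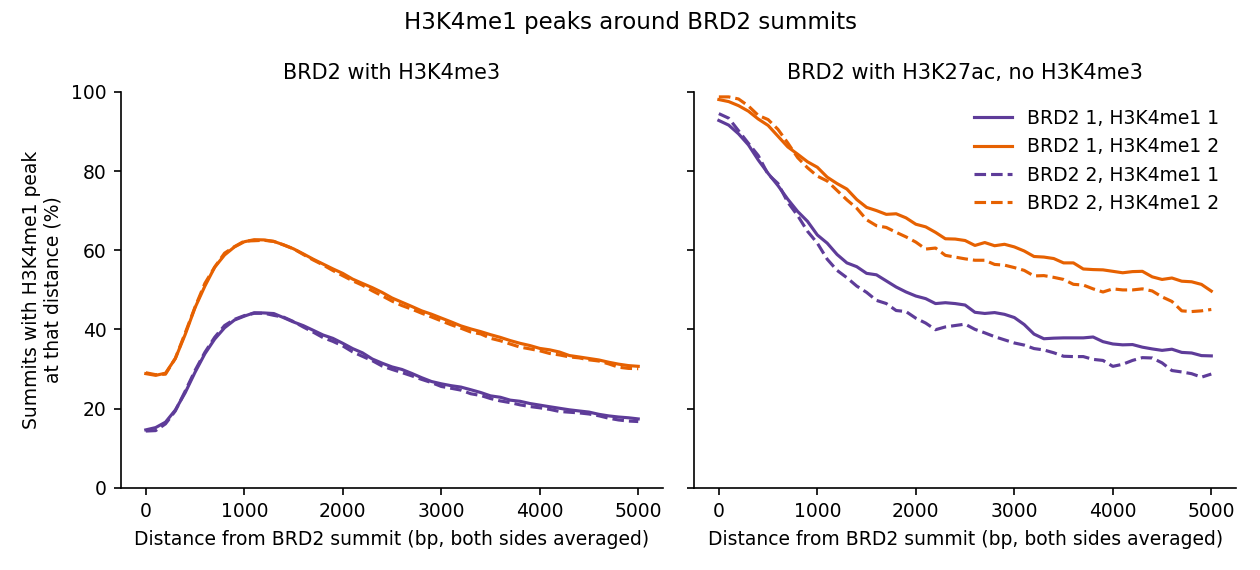
Share of BRD2 summits with an H3K4me1 peak (vertical axis, %) at each distance from the summit (horizontal axis, bp, both sides averaged), for the 4 library pairs. With H3K4me3 (left) the curves start at 14.3% to 29.1% and peak at 1100 to 1200 bp; with H3K27ac and no H3K4me3 (right) they start at 92.8% to 98.8% and fall.

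The gaps that held BRD2 at H3K4me3 were short, and H3K4me3 filled most of them. Their median length was 1341 and 1202 bp for BRD2 replicate 1 and 1337 and 1203 bp for replicate 2, and the nearest H3K4me1 peak lay a median of 398, 358, 397 and 358 bp from the summit. The gap was covered from end to end by H3K4me3 in both lists in 92.7% and 96.4% of cases for BRD2 replicate 1 and in 92.2% and 96.0% for replicate 2. H3K27ac of both lists covered it from end to end in 62.4% to 72.4%. Most of these gaps are therefore stretches called as H3K4me3 from end to end. That they hold no H3K4me1 peak follows from the definition of a gap. The choice of BRD2 peaks that overlap H3K4me3 also favours such cover.

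Most BRD2 summits at H3K4me3 that counted as farther were still close to H3K4me1. Within 2 kb of the summit there was an H3K4me1 peak for 92.2% and 97.1% of them in BRD2 replicate 1 and for 91.2% and 96.6% in replicate 2. An H3K4me1 peak stood within 2 kb on both sides for 34.5% to 51.5%, and on 1 side for 45.6% to 56.6%. The interval between the flanking H3K4me1 peaks had a median of 3507 and 2701 bp for BRD2 replicate 1 and 3622 and 2743 bp for replicate 2, and it was at most 5000 bp for 59.8% to 85.2%. Summits at H3K4me3 with no H3K4me1 peak within 2 kb numbered 255 and 44 in BRD2 replicate 1, and 323 and 56 in replicate 2. The 2 kb limit lies where gaps are common: 405 to 572 BRD2 summits per pair fell in gaps within the last 200 bp up to the limit, and 328 to 440 in gaps up to 200 bp longer than it.

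The width of the H3K4me3 peak under BRD2 went with the class. The width was that of the widest H3K4me3 peak that the BRD2 peak overlapped, which need not hold the summit. In the first H3K4me3 list, whose peaks have a median width of 1775.5 bp, its median was 1597 to 1943 bp in the inside class, 2346 to 2477 bp in the gap class and 3171 to 3967 bp in the farther class. Where the H3K4me3 peak was narrower than 1 kb, 70.0% and 70.1% of the BRD2 summits were inside H3K4me1 replicate 1, and 89.4% and 90.0% inside replicate 2. At widths of 2 to 3 kb the gap share was highest, at 65.9%, 74.5%, 65.7% and 74.8% over the pairs. At 4 kb or more, 78.3% and 79.8% were farther with H3K4me1 replicate 1, and 59.9% and 59.7% with replicate 2. The limit of 2 kb on a gap sets part of this last shift, since a summit in the middle of a wide H3K4me3 peak without H3K4me1 cannot be in a short gap. Several BRD2 peaks can share 1 H3K4me3 peak: with the widest taken for each, the 8121 and 9223 BRD2 peaks had 6713 and 8055 peaks of the first H3K4me3 list.

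**Figure D3:**
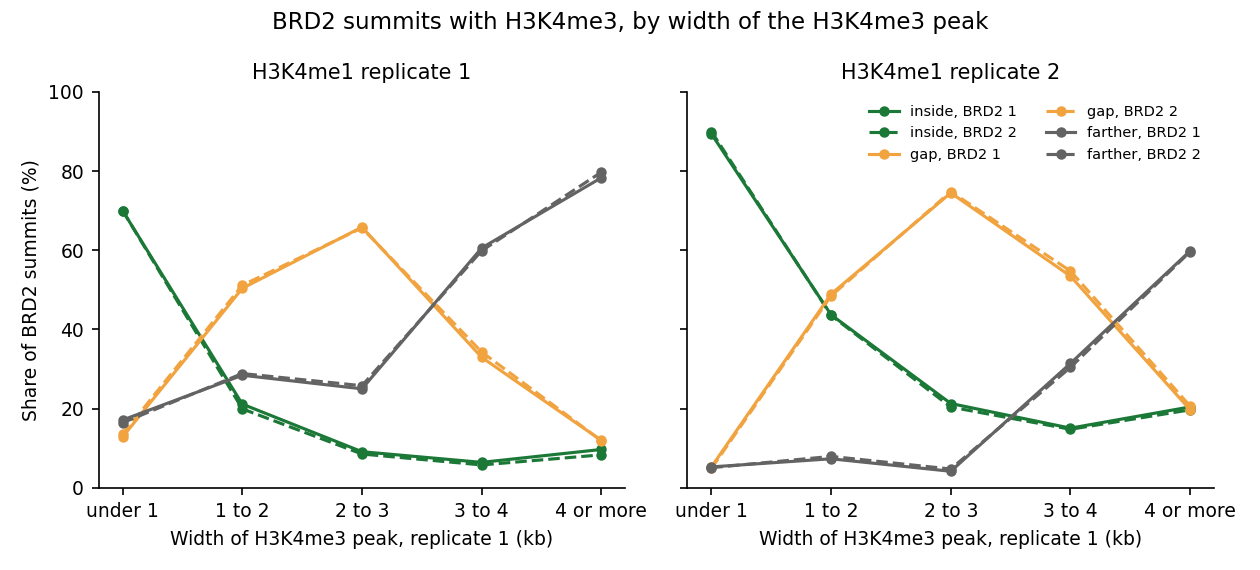
Share of BRD2 summits with H3K4me3 (vertical axis, %) in each class, by width of the H3K4me3 peak of replicate 1 (horizontal axis, kb), with H3K4me1 replicate 1 (left) and 2 (right); solid lines are BRD2 replicate 1 and dashed lines replicate 2. The inside share falls from at least 70.0% under 1 kb, the gap share is highest at 2 to 3 kb, and the farther share is highest at 4 kb or more.

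Even the BRD2 summits inside H3K4me1 sat differently at the 2 kinds of site. At H3K4me3 the summit was a median of 153 and 195 bp from the nearest edge of the H3K4me1 peak for BRD2 replicate 1, and 141 and 184 bp for replicate 2, and 51.0% to 62.4% of summits were within 200 bp of an edge. With H3K27ac and no H3K4me3 the median edge distance was 712.5 and 1338.5 bp for BRD2 replicate 1 and 680.5 and 1260.5 bp for replicate 2, and 1.43% to 11.9% were within 200 bp. The H3K4me1 peaks differed in width too, with medians of 1002 to 1577 bp at H3K4me3 and 2158 to 4647.5 bp without it, so a wider peak leaves more room from its edges. The distance to the H3K4me1 summit differed less, with medians of 270 to 386 bp at H3K4me3 and 222.5 to 417.5 bp without it.

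The place of BRD2 also went with its strength, over all deposited peaks. At H3K4me3 the inside share fell from 29.0% of summits with a −log10 q under 1.3 to 6.32% of those at 20 or more in BRD2 replicate 1 with H3K4me1 replicate 1, and from 46.0% to 15.1% with H3K4me1 replicate 2. In BRD2 replicate 2 it fell from 33.7% to 11.6% and from 53.6% to 23.2%. The gap share rose over the same range, from 33.9% to 53.5% and from 38.5% to 62.8% in BRD2 replicate 1, and from 29.7% to 48.5% and from 32.3% to 57.0% in replicate 2. BRD2 with H3K27ac and no H3K4me3 showed no such fall with H3K4me1 replicate 1: the inside share rose from 78.4% under 1.3 to 96.6% at 5 to 10 in BRD2 replicate 1 (148 summits in the upper range), and from 79.9% under 1.3 to 98.6% at 20 or more in BRD2 replicate 2 (72 summits). With H3K4me1 replicate 2 there was no steady course: the share went from 92.1% under 1.3 to 100% at 5 to 10 and 96.3% at 10 to 20 (27 summits) in BRD2 replicate 1, with 3 of 5 summits inside at 20 or more, and from 94.5% to 99.2% at 5 to 10 and 95.8% at 20 or more in BRD2 replicate 2. Strength and mark were also linked, since H3K4me3 was on 12.7% of the weakest and 98.4% of the strongest BRD2 peaks of replicate 1, and on 15.6% and 96.2% of those of replicate 2. Among the 10000 strongest peaks, the median fold enrichment of BRD2 at H3K4me3, as deposited, was 4.64 and 4.69 inside, 5.08 and 5.22 in gaps and 5.14 and 5.22 farther in replicate 1. In replicate 2 it was 8.71 and 8.75 inside, 9.55 and 9.85 in gaps and 9.82 and 9.85 farther, so the inside class was the weakest in each pair.

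**Figure D4:**
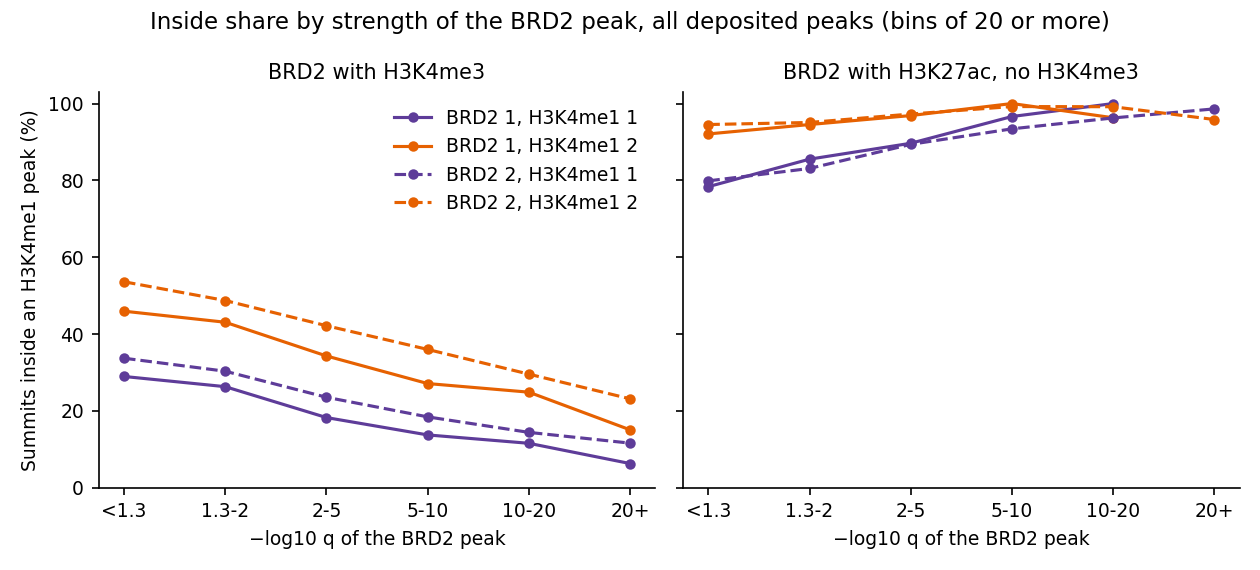
Share of BRD2 summits inside H3K4me1 peaks (vertical axis, %) by −log10 q of the BRD2 peak (horizontal axis, ranges of the authors' values), for all deposited peaks in ranges with at least 20 summits; colours give the H3K4me1 replicate and line styles the BRD2 replicate. With H3K4me3 (left) all 4 lines fall, the lowest to 6.32%; with H3K27ac and no H3K4me3 (right) every plotted point is at 78.4% or above.

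Whether one summit changes class with the H3K4me1 library was checked on the same BRD2 peaks. Of the 10000 strongest, 72.3% in BRD2 replicate 1 and 68.9% in replicate 2 had the same class with both H3K4me1 lists. The changes ran towards H3K4me1 in the longer list: 96.3% and 96.6% of summits inside H3K4me1 replicate 1 were also inside replicate 2, whereas 22.0% and 22.2% of those in a gap of replicate 1 were inside replicate 2, and 33.1% and 42.8% of those farther in replicate 1 were in a gap of replicate 2. In regions called in both BRD2 lists and among the strongest of each, 7203 had H3K4me3, of which 730 were inside, 2367 in a gap and 1308 farther in all 4 pairs, and 2798 differed between pairs. Of 350 such regions with H3K27ac and no H3K4me3, 330 were inside in all 4 pairs, 0 were in a gap or farther in all 4, and 20 differed.

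Single regions show the classes at scale. Coordinates are hg19, the build in the submitters' processing notes, and genes at these positions were not analysed here. The strongest region in a gap in all pairs was chr12:12419580-12420741, where BRD2 had a fold enrichment of 20.8 in replicate 1 and 53.4 in replicate 2. It lay in an H3K4me1 gap of 1968 bp in replicate 1 and 1835 bp in replicate 2, under H3K4me3 peaks of 2989 and 2748 bp. At chr20:44562685-44563725 BRD2 reached 23.2 and 60.6, in gaps of 1862 and 1743 bp. At chr20:37063255-37064161 it reached 20.1 and 44.7, in gaps of 1341 and 1253 bp. These 3 regions ranked 2, 3 and 7 by the worse of their ranks in the 2 BRD2 lists, so they are among the strongest BRD2 sites of all, and each had H3K27ac, H4K12ac and H4K5acK8ac in both lists of each mark.

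The 3 strongest regions inside H3K4me1 with H3K27ac and no H3K4me3 ranked 653, 695 and 717. BRD2 had a fold enrichment of 7.40 and 17.4 at chr10:47056196-47058515, which lay within H3K4me1 peaks chr10:47055813-47059333 of replicate 1 and chr10:47053659-47059525 of replicate 2. At chr20:49340968-49342020 it was 7.17 and 19.9, within H3K4me1 peaks of 2223 and 9647 bp. At chr20:49406897-49407915 it was 7.18 and 18.9, within peaks of 1586 and 2169 bp. All 3 had the same acetylation marks in both lists and no H3K9me3 or H3K27me3 in any. Their BRD2 enrichment was below that of the 3 gap regions in each library. Both sets were picked by BRD2 rank from classes of unequal size, so this order does not compare the classes.

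The 3 strongest regions that were farther in all pairs ranked 3, 6 and 15, and their intervals were above 2 kb, as their class requires. At chr1:150336056-150336540 BRD2 had a fold enrichment of 18.6 and 46.9, the flanking H3K4me1 peaks were 2666 and 2605 bp apart, and the nearer one was 307 and 186 bp from the BRD2 replicate 1 summit. At chr2:240322942-240323922 the enrichment was 23.2 and 47.6 and the interval 2703 and 2253 bp. At chr2:3622195-3623806, which ranked 3, the enrichment was 26.5 and 56.9 and the interval 2677 and 2336 bp. All 3 had H3K4me3 peaks, between 3448 and 5576 bp wide, against 2547 to 3532 bp at the 3 gap regions. All 3 had H3K4me1 within 1 kb, so none was remote from H3K4me1.

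Seen from H3K4me1, a BRD2 summit was uncommon. Over all deposited peaks, 4.92% of H3K4me1 replicate 1 peaks held a summit of BRD2 replicate 1 and 6.47% one of replicate 2, and for H3K4me1 replicate 2 the shares were 5.11% and 6.12% (mean 5.66%, SD 0.904 between BRD2 libraries). The share was higher where H3K4me1 overlapped H3K4me3 in both lists, at 11.5%, 15.2%, 17.2% and 22.9%, than with H3K27ac and no H3K4me3, at 6.60%, 10.4%, 8.08% and 10.9%. It was 0.646% to 1.27% where H3K4me1 had neither mark, and such peaks made up 36.7% and 52.1% of the H3K4me1 lists. Among the 10000 strongest H3K4me1 peaks the share was 24.9%, 33.9%, 32.7% and 41.0%, and it was at most 1.40% beyond rank 100000. H3K4me1 peaks with a BRD2 summit were also wider, with medians of 1019 to 1606 bp against 422 to 536 bp without one, and a wider peak offers more bases to hold a summit. Peaks with neither mark and no BRD2 replicate 1 summit were narrow, with median widths of 325 and 390 bp in the 2 lists.

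The placement at H3K4me3 was compared with that of other lists by taking their 10000 strongest summits in the same way. H3K4me3's own summits were inside H3K4me1 replicate 1 in 0.85% of cases in each of its libraries, and inside replicate 2 in 7.53% and 7.21%. H3K27ac summits at H3K4me3 were inside in 10.0% and 13.2% with H3K4me1 replicate 1 and in 18.0% and 22.5% with replicate 2, below the 14.6% and 14.3% and the 28.9% and 29.1% of BRD2. Summits of H4K5acK8ac, histone H4 acetylated at both lysine 5 and lysine 8, were inside in 27.3% and 30.4% and in 44.4% and 48.7%. Those of H4K12ac were inside in 33.0% and 31.0% and in 50.0% and 47.9%. With either H3K4me1 list, both BRD2 libraries were above both H3K27ac libraries and below all 4 libraries of these H4 marks. Without H3K4me3 but with H3K27ac, summits of BRD2, H3K27ac, H4K5acK8ac and H4K12ac were inside H3K4me1 in 92.8% to 99.6% of cases; the strongest H3K4me3 peaks hold no such summit. The lists differ in length and peak width, and the part of that in these orders was not tested.

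**Figure D5:**
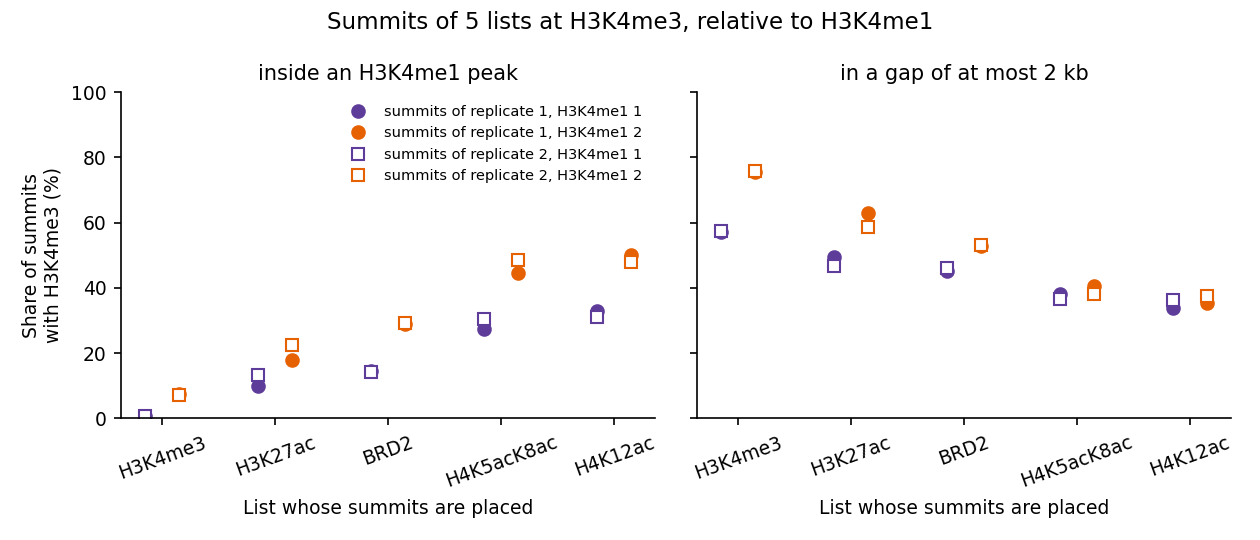
Share of summits with H3K4me3 (vertical axis, %) inside an H3K4me1 peak (left) and in a gap of at most 2 kb (right) for the 10000 strongest peaks of 5 targets (horizontal axis); filled circles and open squares are replicates 1 and 2 of the target, and colours give the H3K4me1 replicate. With each H3K4me1 list, the inside share of BRD2, at 14.3% to 29.1%, lies between that of H3K27ac and those of H4K5acK8ac and H4K12ac.

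Within the BRD2 peaks at H3K4me3, the H4 acetylation marks were called almost everywhere, with 1 exception. In each class and pair, H4K5ac was present at 99.7% to 100% in either of its lists and H4K12ac at 98.5% to 100%. H4K8ac replicate 1 was present at 97.2% to 98.9%. H4K8ac replicate 2, the weaker list with 6838 peaks of −log10 q of at least 5 against 37399 in replicate 1, covered 92.8% to 96.9% of BRD2 inside H3K4me1, 68.9% to 76.7% in gaps and 66.4% to 68.7% farther. The difference between classes was thus seen in the weaker H4K8ac list and hardly in the stronger one. Over all deposited BRD2 peaks, H4K5ac was on 37.8% to 65.2% and H4K12ac on 35.2% to 60.2%. H4K8ac replicate 1 was on 40.4% and 60.2% of the deposited BRD2 peaks, and H4K8ac replicate 2 on 26.9% and 41.8%. Over all BRD2 peaks with a −log10 q of at least 10, most of which have H3K4me3, the H4K5ac and H4K12ac shares were 98.97% to 99.8%. The H4K8ac shares of those peaks were 98.5% and 98.3% in replicate 1, and 88.8% and 82.2% in replicate 2.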

How the data were processed

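ChIP-seq peak lists of BRD2, H3K4me1, H3K4me3 and H3K27ac, 2 libraries each, were used, with further lists of the series for comparison. Reads were aligned to hg19 with BWA and peaks called with MACS2, per the submitters' processing notes, which give no versions; settings and the control used are not given in the sources used here. Each library has its own list. In the deposited lists, fold enrichment is a ratio to the local background, and significance is −log10 p and −log10 q; the deposited score was not used. Being the authors' own, they served mostly for ranking, filtering and description inside 1 list at a time. Some were also set side by side between lists, or cut at 1 shared −log10 q limit, although the depth of the libraries may differ. Read depth is unknown, so longer lists may come from deeper libraries, and no interval based on reads is given. A Wilson 95% interval of a share of 10000 peaks reaches at most 0.98 percentage points to either side and covers counting error only.

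The 10000 strongest BRD2 peaks by −log10 q (ties by −log10 p) were placed against all deposited H3K4me1 peaks in the 4 library pairs; marks were assigned by an overlap of at least 1 bp. Means over pairs carry the SD between libraries, each library being averaged over the lists of the other target. Regions named were called in both BRD2 lists and are the first 3 of each class, with the same class in all 4 pairs, by the worse of their ranks; gap regions have H3K4me3 in both lists, and inside regions have H3K27ac in both and H3K4me3 in neither. The members, the classes and the rules were chosen with earlier results of these data known. Libraries were not treated as paired by replicate number. Over bins of 100000 bp, deviations of equally numbered BRD2 and H3K4me1 libraries correlated at −0.0611. For the other pairs among BRD2, H3K4me1, H3K4me3 and H3K27ac the values were −0.000949 to 0.0432. Such values between different targets cannot show whether equal numbers share a culture or batch, which the labels do not say. Alternatives changed the peak sets, gap limit, overlap rule, chromosomes and libraries. The placement functions were tested on simulated peaks. Computations used Python 3.11.15, numpy 2.4.6, pandas 2.3.3 and scipy 1.17.1, and plots matplotlib 3.10.9. The gene table at hand is of another build, so no gene or sequence was assigned.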

Additional observations from a re-analysis of the deposited data

Results flagged for a closer look

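The gap share minus the inside share of BRD2 summits had opposite signs at the 2 kinds of site. At H3K4me3 it was 27.6 percentage points on average and above 0 in all 4 library pairs, and with H3K27ac and no H3K4me3 it was −94.8 and below 0 in all 4. The first sign rests on the settings: at H3K4me3 it was −7.67 with gaps of at most 1000 bp and −4.94 with the 10000 strongest H3K4me1 peaks, below 0 in all 4 pairs, while the second was below 0 in every pair under every setting that placed summits. The difference between the 2 groups was not tested: both are peaks of the same 2 BRD2 lists, and the 4 pairs share libraries.

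Strong BRD2 peaks with neither H3K4me3 nor H3K27ac mostly overlapped H3K9me3, a mark of silent chromatin, and several other lists too. At a −log10 q of at least 10 there were 21 such peaks in BRD2 replicate 1, in 9 clusters of peaks less than 1 Mb apart, and 100% of them overlapped a peak of H3K9me3 replicate 1. In BRD2 replicate 2 there were 47, in 19 clusters, and 91.5% overlapped it. Over all BRD2 peaks of that strength the share was 2.40% in replicate 1 and 1.80% in replicate 2, and over all deposited BRD2 peaks with neither mark 11.6% and 13.1%. The same 21 and 47 peaks overlapped H3K27me3 replicate 1 in 16 and 32 cases and replicate 2 in 18 and 36. The H3K27me3 share was 1.06% to 1.96% over all BRD2 peaks of that strength. It was 12.6% to 15.8% over all deposited BRD2 peaks with neither mark. The 21 and 47 peaks overlapped H4K5acK8ac replicate 1 in 20 and 44 cases but replicate 2 in 10 and 15. They overlapped H4K12ac in 6 and 9 against 17 and 39, and H4K8ac in 0 and 3 against 12 and 28. At these sites the replicate lists of these 3 marks thus differed widely. The lists of H3K27me3 differed less, as did those of 2 further marks. H3K9me3 overlapped 21 and 43 peaks in replicate 1 against 21 and 41 in replicate 2, and H4K5ac 6 and 13 against 5 and 10. Over all BRD2 peaks of that strength the shares of H4K5acK8ac, H4K12ac and H4K8ac were higher, at 99.4% to 99.9%, 98.97% to 99.8% and 82.2% to 98.5%. Over all deposited BRD2 peaks with neither mark, H4K5acK8ac was on 1.47% to 3.38% and H4K12ac on 3.11% to 4.76%. There, H4K8ac replicate 1 was on 10.6% and 11.8%, and replicate 2 on 4.97% and 6.90%. All 21 of the first set and 45 of the second overlapped a peak of the other BRD2 list. Their summits lay inside H3K4me1 replicate 1 for 16 of 21 and 31 of 47, but inside H3K4me1 replicate 2 for 0 and 3. The 47 are among the 78 BRD2 replicate 2 peaks with neither mark, whose inside share was 46.2% with the first H3K4me1 list and 5.13% with the second. H3K27ac overlapped none in either list, as the choice of these peaks requires.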

How the results depend on the processing

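Of 87 alternatives over the 5 main values, 69 moved the value by less than the larger SD between libraries and 18 by more. Leaving out a BRD2 or H3K4me1 library always falls in the first count, because the SD is that of the same 2 libraries. The sign changed in 0 alternatives, but a share cannot fall below 0, so only the 2 differences could change sign. These differences between BRD2 at H3K4me3 and BRD2 with H3K27ac only were above 0 in 176 of 176 pair values. Some settings repeat pair values of the main setting, so the 176 are not separate checks. The inside share, 26.5%, was 13.4% with the 10000 strongest H3K4me1 peaks and 49.2% when any overlap of the BRD2 peak counted. The gap share, 43.0%, was 17.3% over all deposited BRD2 peaks, 48.7% over the 5000 strongest, 32.3% with H3K4me1 peaks of −log10 q of at least 5 and 3.48% with the 10000 strongest of them. It was 12.3% with gaps of at most 1000 bp and 60.2% with gaps of at most 5000 bp, and 37.9% with the 100000 strongest H3K4me1 peaks, an alternative chosen after seeing the data. The difference in inside share, 74.3 percentage points, was 60.6 over all deposited BRD2 peaks and 50.0487 with any overlap. The difference in gap share, 48.0, was 39.8 over all deposited BRD2 peaks, 36.1 with H3K4me1 of −log10 q of at least 5, 3.18 with the 10000 strongest H3K4me1 peaks, and 13.2 and 67.3 with gaps of at most 1000 and 5000 bp. The share of H3K4me1 peaks that hold a BRD2 summit, 5.66%, was 1.25% with BRD2 of −log10 q of at least 5 and 10.4% with H3K4me1 of that strength. The alternatives on H3K4me1 peaks and gap length change by construction how much of the genome counts as H3K4me1 or as a gap, and those on BRD2 peaks and overlap change which BRD2 peaks count; other causes were not tested. The gap share minus the inside share, which is not one of the 5 values, turned from 16.4 to −8.05 over all deposited BRD2 peaks, to −14.2 with gaps of at most 1000 bp and to −9.89 with the 10000 strongest H3K4me1 peaks, and with BRD2 peaks that overlap the other BRD2 list it was above 0 in 3 of 4 pairs. At H3K4me3 the shorter gap limit and the 10000 strongest H3K4me1 peaks turned it, and the other settings did not.

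Leaving out 1 library at a time gave an inside share of 20.2% (without H3K4me1 replicate 2) to 32.9% (without H3K4me1 replicate 1), a gap share of 39.9% to 46%, differences of 69.5 to 79.2 in inside share and 43.2 to 52.8 in gap share, and 5.02% to 6.29% of H3K4me1 peaks with a summit. With a replicate block, that is, only the 2 pairs with equal replicate numbers, the values were 26.9%, 43.1%, 73.9, 47.9 and 5.52%. Whether equal numbers pair the libraries is not known. Depth limits the comparison of the 2 H3K4me1 lists, since no read numbers are given: a summit outside H3K4me1 is one not called there, and weak H3K4me1 under it may be below what the library can show.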
